A study of Arabidopsis thaliana with 24 samples.

Results

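The brm-1 and brm-3 mutants of Arabidopsis thaliana were compared with each other, 3 RNA-seq libraries against 3, which are 6 of the 24 libraries of the series. The 6 libraries were chosen by the genotype in their names, but the comparison itself was chosen with earlier results of these data known. Both mutants carry a T-DNA insertion in BRAHMA (BRM) in the Columbia background (Col-0), and each allele is represented by a single insertion line. The study describes brm-1 as a null allele and brm-3 as a hypomorphic allele, that is, an allele of reduced function. All libraries came from 14-day-old seedlings grown in short days, with no treatment other than the genotype. WT (Col-0, 3 libraries) and the triple mutants brm-1 bcl7a bcl7b and brm-3 bcl7a bcl7b (3 libraries each), which also lack the SWI/SNF subunits BCL7A and BCL7B, were used beside the 2 single mutants. The methods call the 3 libraries of a genotype biological replicates without saying whether they came from separate plantings, so p-values measure the spread between these libraries, which may be technical. Whole seedlings were used, so that fewer cells of a type and less RNA per cell cannot be told apart.

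BRM is an ATPase of the SWI/SNF chromatin remodelling complexes, which slide or evict nucleosomes with energy from ATP and thereby change the accessibility of DNA. Arabidopsis has further SWI/SNF ATPases, among them SYD, and BRM is known for its part in leaf, flower and hormone pathways. A weak and a null allele of such a gene can differ in degree, or in which genes respond, and the comparison asks which genes respond to complete loss of BRM and not to its partial loss.

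BRM transcript itself separated the alleles. Its normalized counts (Salmon's estimate per gene scaled by DESeq2's size factors, as deposited) were 35.2, 44.8 and 31.2 in brm-1, and 167, 173 and 135 in brm-3. WT had 111, 180 and 349, so that the brm-3 libraries lay inside the WT range and the brm-1 libraries below it. The log2 fold change of brm-1 over brm-3 was -2.07 ± 0.36 (SE; limma, adjusted p = 0.000591). These values sum reads along the gene, and they say nothing of the protein that either allele makes. Of 20 SWI/SNF subunits tested, BRM was the only one called, while 9.94% of all genes tested were called. The related ATPase gene SYD had 204, 196 and 140 in brm-1 and 149, 185 and 163 in brm-3, with a difference of 0.11 and a 95% interval of -0.52 to 0.73. SWP73B, which encodes another core subunit, had 173, 139 and 174 against 224, 259 and 260 (log2 fold change -0.61, limma adjusted p = 0.0585), and did not pass the test.

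Fold changes are on the scale of log2(normalized count + 1), which understates changes of low genes. For a gene near 0 in 1 allele, their size depends on the added 1. A gene counted as called when its limma adjusted p was under 0.05 and its log2 fold change exceeded 0.6 in either direction. Of 21596 genes tested, 1153 (5.34%) were higher and 994 (4.6%) lower in brm-1 than in brm-3. Of the 2147 called genes (9.94%), 2132 had brm-1 and brm-3 libraries that did not overlap, as had 37.9% of all genes tested. Rises were larger than falls. Among the higher genes 370 differed by more than 4-fold (over 2 on the log2 scale), and among the lower genes 109. The median over all genes tested was 0.03. Sums of normalized counts were 18700000 to 22100000 in the 6 libraries, and replicates of the alleles differed with an SD of 0.72 to 0.79 on the log2 scale. The counts fell by more than 1.5 times without some libraries. In a fit of only the groups compared the higher genes were 2110. Without brm-1 replicate 1 the counts were 648 and 642, without brm-1 replicate 2 they were 649 and 594, without brm-3 replicate 1 the higher genes were 749, and without brm-3 replicate 3 the counts were 756 and 638.

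**Figure D1:**
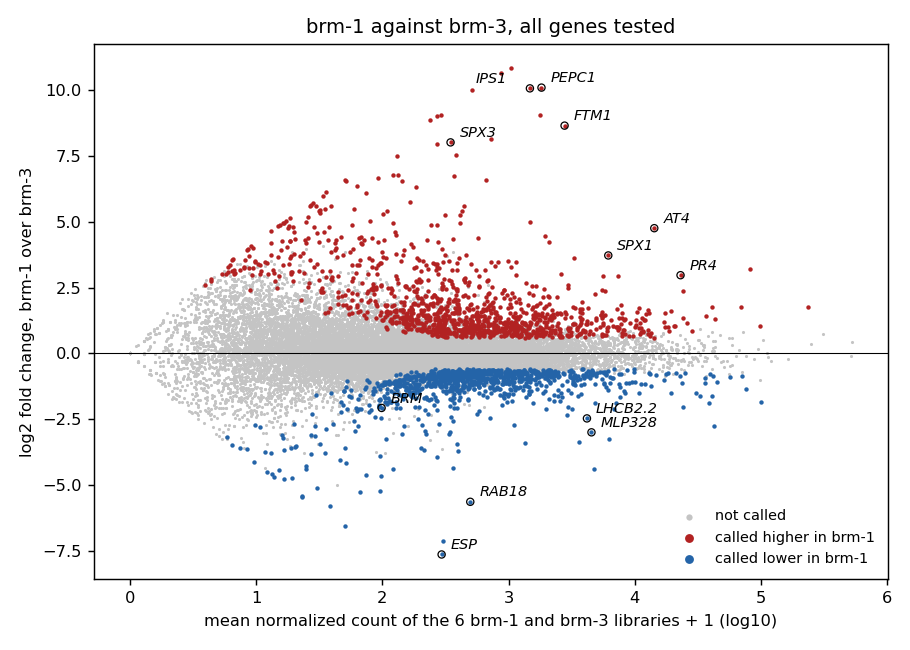
Log2 fold change of brm-1 over brm-3 (vertical) against the mean normalized count of the 6 libraries plus 1 (horizontal, log10) for the 21596 genes tested. Red points are the 1153 genes called higher and blue points the 994 called lower in brm-1. Genes listed at 0 throughout 1 allele are drawn at the fitted value, which depends on the added 1.

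The called genes were divided by how each allele differed from WT. A first class held genes that differed between brm-1 and WT in the same direction while brm-3 stayed within 0.6 of WT on the log2 scale. This brm-1-only class had 374 genes higher and 277 lower in brm-1, which are 32.4% and 27.9% of the called genes of each direction and 1.73% and 1.28% of all genes tested. The class held 205 higher genes without brm-1 replicate 2, 210 without brm-1 replicate 1, 237 higher and 169 lower without brm-3 replicate 3, and 418 lower after quantile normalization. For 32 of its 651 genes the difference of brm-3 from WT, though within 0.6, had an adjusted p under 0.05 in limma. In a graded class, 257 higher (1.19%) and 386 lower (1.79%) genes were called in both alleles against WT, with the larger change in brm-1. Another class held 264 higher (1.22%) and 204 lower (0.945%) genes that lay further from WT in brm-3 than in brm-1. A further 22 higher (0.102%) and 10 lower (0.0463%) genes were called in opposite directions against WT in the alleles, and 236 higher (1.09%) and 117 lower (0.542%) genes fitted none of these classes. BRM itself fell in the brm-1-only class.

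The classes depend on WT. The WT libraries summed to 35300000 to 40900000, and their 10 highest genes took 29.0 to 33.6% of the sum, against 9.86 to 13.7% in brm-1 and brm-3. The bcl7a and bcl7b libraries were like WT, so that these 9 libraries summed to 29900000 to 40900000 with 26.8 to 33.6% in 10 genes, and the other 15 to 16600000 to 22100000 with 7.87 to 13.7%. Between WT and the brm alleles, genotype and this property of the libraries cannot be told apart. WT replicates differed with an SD of 1.25 to 1.86 on the log2 scale, more than those of either allele. Against WT, 48.1% of genes were called in brm-1 (28.9% higher, 19.2% lower) and 40% in brm-3 (23.5% higher, 16.5% lower), and the median of all genes was 0.35 and 0.27. Rescaling every library to the same total moved these medians to 1.15 and 1.12, the brm-1-only class to 276 higher and 318 lower genes, and the class further from WT in brm-3 to 85 higher and 507 lower. The fold change of brm-1 over brm-3 does not use WT values, and its median over all genes was -0.02 after that rescaling. Its calls do depend on WT through the spread that all genotypes share in the model, with 1342 higher and 1132 lower genes without WT replicate 1. Within the brm-1-only class the 95% interval of the difference between brm-3 and WT lay within 1 log2 unit of 0 for 427 of 651 genes, and for the rest a difference of brm-3 from WT of 1 log2 unit was within the interval.

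Genes of the phosphate starvation response rose together in brm-1. When inorganic phosphate is short, plants induce phosphate transporters, acid phosphatases and enzymes that replace phospholipids with galactolipids and sulfolipids. The transcription factor PHR1 drives this response and the SPX proteins restrain it. The microRNA miR399 lowers the transcript of PHO2, a ubiquitin-conjugating enzyme that limits phosphate transport, and the noncoding RNA IPS1 mimics the PHO2 target site and sequesters miR399. Of 24 members of the list tested, 21 were higher and 0 lower, with a median log2 fold change of 2.95. Of all genes tested, 5.34% were higher and 4.6% lower. The list was chosen with earlier results of these data known, so its count is a description. Of the 21, 7 were in the brm-1-only class, 6 were graded, 2 were called in opposite directions against WT, 2 lay further from WT in brm-3 and 4 fitted none of these.

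Among miR399 precursors, MIR399D and MIR399c showed the contrast between alleles most plainly. The precursor transcript of MIR399D had 2637, 2853 and 818 in brm-1, and was listed at 0 in all brm-3 and all WT libraries (limma, adjusted p = 1.05e-05). MIR399c had 734, 706 and 296 in brm-1 and was likewise listed at 0 in brm-3 and WT (limma, adjusted p = 4.71e-06). brm-1 replicate 3 was the lowest of its group for both precursors and yet stood far from 0. MIR399e and MIR399f were listed at 0 in all 24 libraries, and MIR399a and MIR399b had no values here. No fold change is given for genes at 0 throughout an allele, since a fitted value then depends on the added 1. The mature microRNAs of the pair that rose are shown with the seed that they share (bases 2 to 8, in capitals). They come from the RefSeq annotation of assembly TAIR10.1, at chr2:14442988-14443008 (minus strand) for miR399d and chr5:24962568-24962588 (plus strand) for miR399c. That annotation gives miR399a, miR399b, miR399e and miR399f the same seed, so the seed is not particular to the pair that rose.
miR399d: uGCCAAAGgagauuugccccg
miR399c-3p: uGCCAAAGgagaguugcccug

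A search of the RefSeq PHO2 transcript for stretches that pair with miR399d with at most 5 mismatches found 5 sites of 21 bases in the 5′ UTR, on the minus strand of chromosome 2. Capitals mark the bases that pair with miR399d, at 18 or 19 of the 21 positions, with G:U pairs counted as mismatches. The first lies at chr2:14282106-14282126 and the last at chr2:14281770-14281790.
PHO2 site a: taGGGCAAATCTtCTTTGGCA
PHO2 site b: taGGGCAtATCTCCTTTGGCA
PHO2 site c: ttGGGCAAATCTCCTTTGGCA
PHO2 site d: tcGaGCAAATCTCCTTTGGCA
PHO2 site e: taGaGCAAATCTCCTTTGGCA
The mimic site of IPS1 (chr3:3051224-3051247, plus strand) is shown beside them because it holds the same pairing stretch with 3 extra bases in the middle, written here in lower case together with its mismatches.
IPS1 mimic site: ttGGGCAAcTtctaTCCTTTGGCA
All 5 PHO2 sites and the IPS1 site end in the same 8 bases, which pair with bases 1 to 8 of the microRNA, the seed included. PHO2 itself had 349, 426 and 339 in brm-1 and 498, 668 and 648 in brm-3. The groups did not overlap, but the log2 fold change of -0.70 (95% interval -1.28 to -0.12) did not pass the test (limma, adjusted p = 0.129).

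The decoy RNAs rose as well. IPS1 had 4166, 2866 and 1803 in brm-1 against 2.74, 0 and 3.56 in brm-3, a log2 fold change of 10.08 ± 1.69 (limma, adjusted p = 0.000387). Its relative AT4 had 34939, 26061 and 21401 against 650, 1601 and 933 (log2 fold change 4.76 ± 0.44, limma adjusted p = 2.19e-07). WT had 6007, 9279 and 3551 for AT4, between the alleles. For IPS1 the WT libraries spread widely, at 19.9, 359 and 0.

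Enzymes that release phosphate or remodel lipids gave further large rises. PEPC1 (AT1G17710), a phosphatase that acts on phosphocholine and phosphoethanolamine, had 4047, 4076 and 2792 in brm-1 and 5.51, 1.82 and 0.876 in brm-3. Its log2 fold change, 10.11 ± 1.12, was the largest rise among genes with values in both alleles (limma, adjusted p = 2.57e-06). That rank depends on the added 1, since with 0.1 added instead IPS1 had 11.42 and PEPC1 10.68. PPSPASE1 (PS2), a pyrophosphatase, had 1726, 1583 and 1032 against 8.93, 3.53 and 1.7 (log2 fold change 8.16 ± 1.21, limma adjusted p = 9.53e-05). MGD3, a galactolipid synthase, had 855, 828 and 579 against 2.53, 0.964 and 8.31 (7.53 ± 0.99, limma adjusted p = 2.39e-05). For these 3 genes, all of the brm-1-only class, brm-3 lay within the range of WT, whose highest library had 33.1 for PEPC1, 29.3 for PPSPASE1 and 9.66 for MGD3. SQD1, which begins sulfolipid synthesis, had 3274, 2809 and 2281 against 577, 460 and 393 (2.55 ± 0.19), and WT had 498, 444 and 394. The acid phosphatase gene PAP17 was graded, with 16232, 14534 and 8718 in brm-1, 1483, 1602 and 1859 in brm-3 and 646, 1523 and 759 in WT (2.95 ± 0.32 between the alleles).

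Feedback and transport genes were also higher in brm-1. SPX1 had 14059, 12381 and 7908 in brm-1 and 719, 1248 and 659 in brm-3 (log2 fold change 3.73 ± 0.45, limma adjusted p = 8.24e-06). SPX3 had 730, 856 and 479 against 0.901, 7.97 and 0 (8.02 ± 0.97, limma adjusted p = 7.8e-06), and was listed at 0 in WT. The transporter genes PHT1;4 and PHT1;1 differed less. PHT1;4 had 1219, 928 and 932 against 109, 131 and 160 (2.94 ± 0.26). PHT1;1 had 772, 716 and 775 against 348, 464 and 429 (0.87 ± 0.25, limma adjusted p = 0.0266), a call lost in 5 of 19 alternative settings. WT exceeded both alleles for PHT1;1, with 2286 to 3348. The regulator PHR1 had 560, 606 and 392 against 644, 548 and 413, a difference of -0.04 with a 95% interval of -0.49 to 0.40. The transcription factor gene WRKY75 was not called either (0.44, limma adjusted p = 0.833), and the phosphate exporter gene PHO1, outside the list, had a log2 fold change of 0.28 (limma, adjusted p = 0.596).

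**Figure D2:**
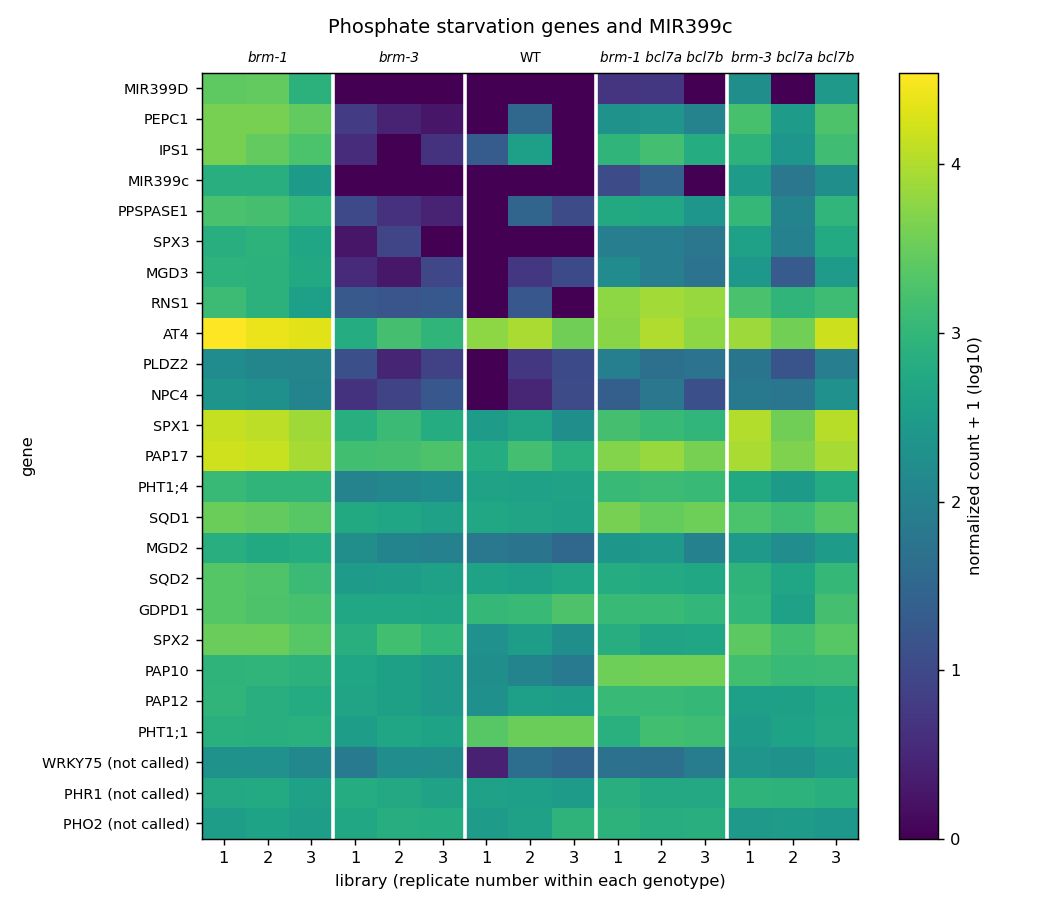
Normalized counts plus 1 (log10, colour) of the 24 phosphate starvation genes tested and of MIR399c in each of the 15 libraries of the 5 genotypes, with genes ordered by the log2 fold change of brm-1 over brm-3. The 3 brm-1 columns are brighter than the 3 brm-3 columns in the upper rows, and the columns of the triple mutants do not show that uniform difference.

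Upstream sequence was read for the motif that PHR1 binds, P1BS (GNATATNC, a palindrome, searched on both strands). In the 300 bases before the gene start of the RefSeq annotation, 8 of the 21 called phosphate genes (38.1%) held it, as did 11.1% of all genes higher in brm-1 and 6.63% of the 21428 genes tested with such a window. A match is a description of letters and not a bound site. The windows of SPX3 (chr2:18606110-18606409, plus strand, 2 matches) and MIR399D (chr2:14443078-14443377, minus strand, 1 match) are shown with the motif in capitals as examples of windows that hold it. The windows of PEPC1, IPS1 and MGD3, which were also near 0 in brm-3, held 0 matches.
SPX3 upstream: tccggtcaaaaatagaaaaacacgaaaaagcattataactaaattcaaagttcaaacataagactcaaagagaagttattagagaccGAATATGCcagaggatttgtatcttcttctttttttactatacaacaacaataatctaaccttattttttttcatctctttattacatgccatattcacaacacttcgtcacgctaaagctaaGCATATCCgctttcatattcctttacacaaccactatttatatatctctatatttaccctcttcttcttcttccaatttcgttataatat
MIR399D upstream: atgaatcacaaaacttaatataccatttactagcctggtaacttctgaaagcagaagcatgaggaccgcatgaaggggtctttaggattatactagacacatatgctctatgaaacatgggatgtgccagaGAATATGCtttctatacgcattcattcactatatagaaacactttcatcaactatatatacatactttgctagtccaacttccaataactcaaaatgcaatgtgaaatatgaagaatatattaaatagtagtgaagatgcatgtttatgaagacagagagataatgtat

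Some genes outside the list rose as sharply. AT5G20790, which encodes an uncharacterized protein, had 3900, 3879 and 2876 in brm-1 and 14.3, 1.77 and 5.96 in brm-3 (log2 fold change 9.05 ± 0.87, limma adjusted p = 3.18e-07). FTM1, a stearoyl-ACP desaturase gene, had 6331, 4666 and 5613 against 11.6, 7.95 and 21.2 (8.66 ± 0.68, limma adjusted p = 2.36e-08), and at most 20.9 in WT. AT2G17850, annotated as a rhodanese-like protein, had 2392, 1882 and 926 in brm-1 and was listed at 0 in brm-3 and WT. AT3G29970, annotated as a B12D protein, had 661, 629 and 339 and was also listed at 0 in brm-3 and WT. In all, 35 called genes were listed at 0 throughout brm-3 and 11 throughout brm-1. Further rises of the brm-1-only class were the zinc transporter gene ZIP12 (270, 175 and 99.8 against 0, 3.54 and 0), the homeodomain gene HDG8 (108, 37.7 and 56.3 against 0, 0 and 1.71) and PNP-A, a plant natriuretic peptide gene (73.1, 22.3 and 51.8 against 0.89, 0 and 0). AT3G20395, a RING/U-box gene, behaved otherwise. It had 278, 235 and 205 in brm-1 and 0.915, 0.897 and 1.75 in brm-3, while WT had 116, 162 and 175, so that brm-3 was the allele that departed from WT.

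Several iron deficiency genes were lower in brm-1 than in brm-3, and for most of them brm-3 was the allele further from WT. Iron-starved plants induce the transporter IRT1, a group of bHLH transcription factors and the IMA peptides, while ferritins store iron when it is plentiful. Of 15 members tested, 8 were lower and 3 higher, with a median log2 fold change of -2.37. Over all genes tested, 4.6% were lower and 5.34% higher. The lower members were 3 when genes with a mean under 50 were left out, and the higher member was 1 without brm-1 replicate 1. Of the 11 called, 8 belonged to the class further from WT in brm-3. IRT1 was listed at 0 in all brm-1 libraries and had 61.6, 38 and 33.1 in brm-3. BHLH101 was also listed at 0 in brm-1, against 52.8, 30.5 and 11.2. IMA1 had 4.44, 17.2 and 10.9 in brm-1 and 294, 171 and 220 in brm-3 (log2 fold change -4.40 ± 0.70, limma adjusted p = 0.000209), with 33.4, 44.5 and 16.1 in WT. Its neighbour IMA2 had 10.6, 8.2 and 15.3 against 199, 162 and 170 (-3.88 ± 0.73). The pair have similar sequences, and reads may have been divided between them.

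BHLH38 and BHLH100, which act with FIT to switch on iron uptake, had at most 7.31 and 1.13 in brm-1 and at least 24 and 18.6 in brm-3. FIT had 51.5, 78 and 89.6 against 168, 103 and 124 and was not called (log2 fold change -0.85, limma adjusted p = 0.316). PYE, a bHLH factor of the iron response, had 64.6, 124 and 111 against 426, 213 and 224 (-1.50 ± 0.37, limma adjusted p = 0.0106). BTS, an E3 ligase that restrains the response, had 184, 103 and 115 against 322, 245 and 250 (-1.06 ± 0.33, limma adjusted p = 0.0403). The ferritin genes went the other way. FER1 had 4334, 4844 and 4188 in brm-1 and 2032, 1987 and 2036 in brm-3 (1.14 ± 0.28, limma adjusted p = 0.0111). FER3 and FER4 were higher by 0.76 and 0.69 (limma, adjusted p = 0.0128 and 0.0316). Leaving out single libraries ended the calls of BTS (5 of 19 settings, limma adjusted p up to 0.181), PYE and FER3 (2 settings each, up to 0.0859 and 0.1), FER1 without brm-1 replicate 2 (up to 0.0539) and BHLH101 without brm-3 replicate 1 (up to 0.0721), and FER4 was lost in 6 of 19 settings (up to 0.183). Several iron uptake genes are active in roots, so root markers were read beside them. Of 13 root markers 0 were called by limma, and 3 had an unadjusted p under 0.05. The largest difference was in WER (2.02, limma adjusted p = 0.2), and none of the 13 was at 0 throughout an allele. Their summed level was 990 to 1133 in brm-1 and 666 to 1112 in brm-3. The part of root share in the iron values was not tested.

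Some abscisic acid (ABA) genes were also lower in brm-1. ABA is the hormone of drought and seed dormancy. Of 8 members tested, 4 were lower and 0 higher, with a median log2 fold change of -2.49. Over all genes tested, 4.6% were lower and 5.34% higher. The brm-1 and brm-3 libraries did not overlap for any of the 8, nor did they for 37.9% of all genes tested. RAB18, a dehydrin gene induced by ABA, had 22.2, 20.6 and 13.2 in brm-1, 893, 797 and 1229 in brm-3 and 2498, 2584 and 2300 in WT. Its log2 fold change was -5.64 ± 0.56 (limma, adjusted p = 5.32e-07). HAI1, a phosphatase gene of ABA signalling, was in the brm-1-only class, with 40.1, 73 and 44.4 against 575, 433 and 1209, and 732, 685 and 1151 in WT (-3.70 ± 0.58, limma adjusted p = 0.000188). NCED3, which encodes a rate-limiting enzyme of ABA synthesis, had 23.7, 17.37 and 15.6 against 160, 158 and 255 (-3.25 ± 0.97, limma adjusted p = 0.0331). ABF3, a transcription factor of the pathway, had 303, 270 and 271 against 649, 622 and 755 (-1.26 ± 0.38, limma adjusted p = 0.0351). NCED3 and ABF3 were no longer called when any 1 of the 6 libraries was left out (adjusted p up to 0.119 and 0.123), and the number of lower members was then 2 without brm-1 replicate 1. In a fit of only the groups compared it was 8.

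Among the 10 largest falls were other genes that ABA or seed maturation is known to induce. EM6, a late embryogenesis abundant protein gene, had 0, 0 and 0.725 in brm-1 and 79, 33.2 and 112 in brm-3 (log2 fold change -5.82 ± 0.92, limma adjusted p = 0.000217), and was listed at 0 in WT. HVA22B had 0, 0.822 and 0 against 32.4, 15 and 61.3. TSPO, a membrane protein gene, had 4.43, 14 and 2.2 against 133, 93.5 and 333. For both, as for EM6, every brm-3 library lay above every WT library. Of the 10 seed maturation genes tested EM6 was the only one called, a share near the 9.94% of all genes tested. The largest fall among genes with values in both alleles was in ESP, which encodes the epithiospecifier protein of glucosinolate breakdown, with 0, 12.6 and 0.748 against 526, 480 and 742 (-7.64 ± 0.71, limma adjusted p = 2.26e-07) and 216, 337 and 579 in WT. AT1G27565, an uncharacterized gene, had 0, 13.7 and 4.26 against 498, 660 and 627 and was listed at 0 in WT. The glutaredoxin gene AT2G47880 had 0.892, 4.09 and 2.91 against 150, 113 and 119.

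**Figure D3:**
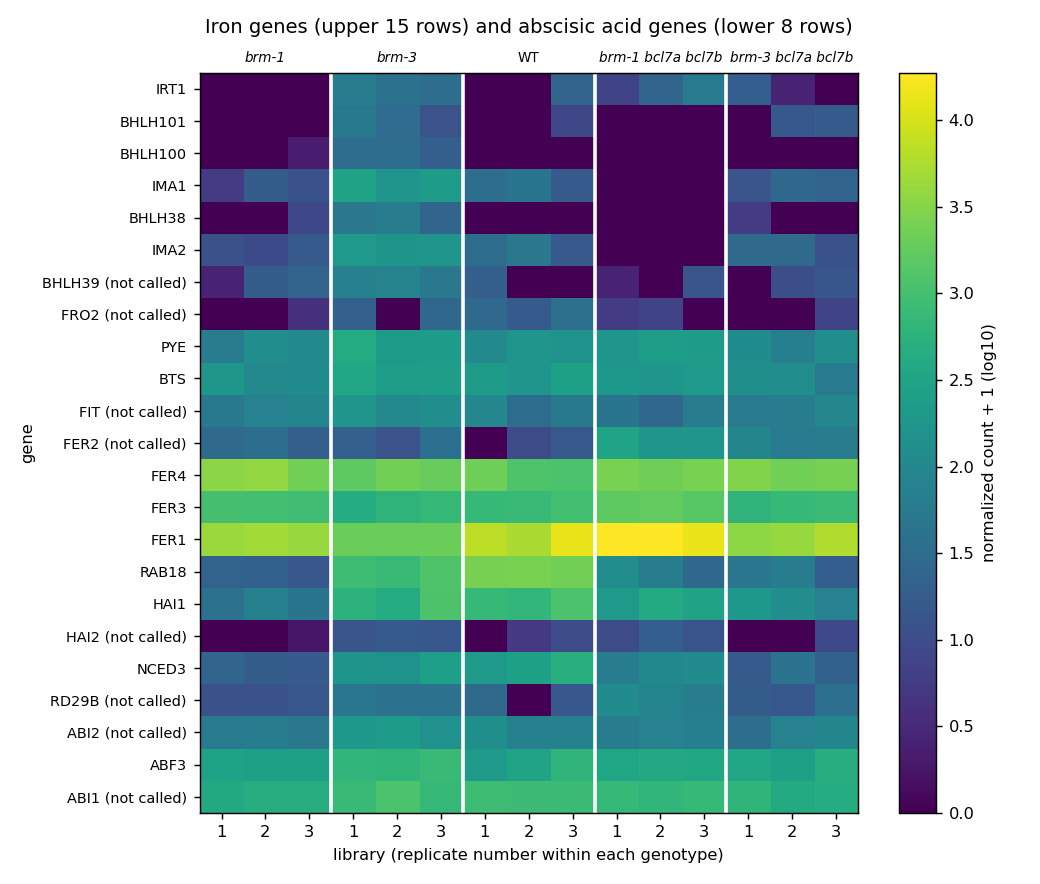
Normalized counts plus 1 (log10, colour) of the 15 iron genes (upper rows) and 8 abscisic acid genes (lower rows) in each of the 15 libraries of the 5 genotypes. IRT1 and BHLH101 are at 0 in all 3 brm-1 columns, and RAB18 is dark in brm-1 and bright in brm-3 and WT.

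In the brm-1-only class the falls included a cluster of neighbouring genes for the triterpene marneral. MRN1, the marneral synthase gene, had 6.15, 13.2 and 0 in brm-1, 67.5, 48.7 and 134 in brm-3 and 52.1, 47.8 and 123 in WT (log2 fold change -4.05 ± 1.21, limma adjusted p = 0.034). CYP705A12 had 13.4, 2.67 and 1.59 against 53.4, 70.6 and 43.8 (-3.44 ± 0.74, limma adjusted p = 0.00347). CYP71A16, the P450 gene between them, was looked up because of its position and had 34.3, 28.1 and 18.5 against 102, 134 and 142 (-2.21 ± 0.56, limma adjusted p = 0.012). All 3 lie within chr5:17023502-17058245 of TAIR10.1. CYP71A16 was not called without replicate 3 of either allele. MRN1 was not called without brm-1 replicate 1 or 3 or without any 1 of the brm-3 libraries, and its adjusted p over the alternatives ranged from 0.00599 to 0.187. Other falls of the class were the retroelement SADHU5-1, with 47, 21.4 and 32.2 against 481, 692 and 915 (-4.35 ± 0.56), and MLP328, a major latex protein gene, with 1214, 1036 and 766 against 10295, 6250 and 7638 (-3.0 ± 0.26, limma adjusted p = 8.64e-08).

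Some light-harvesting and evening clock genes were lower in brm-1 in a graded way. The light-harvesting proteins bind the chlorophyll of the photosystems. Of 20 genes tested, 9 were lower and 1 higher, with a median of -0.93, and all 9 that fell were graded. The list summed to 854235 to 963045 in brm-1, 1079940 to 1740550 in brm-3 and 9424180 to 13415700 in WT. The graded class rests on WT, and the step from WT cannot be told apart from the property of the WT libraries given above. LHCB2.2 had 1462, 1219 and 1099 in brm-1, 5338, 6896 and 9032 in brm-3 and 131947, 181040 and 132181 in WT (log2 fold change between the alleles -2.47 ± 0.26, limma adjusted p = 1.11e-06). LHCB2.1 fell by 2.04 and LHCA4 by 1.62 on the log2 scale. The gene that rose was LHCB1.2 (1.03 ± 0.30, limma adjusted p = 0.0293). Its call was lost in 6 of 19 settings (adjusted p up to 0.123), and LHCB1 genes are near-identical copies among which reads may have been divided. Genes of the photosystem cores moved less, with 3 of 24 lower and 1 higher, and of 14 Calvin cycle genes 1 was higher. Of all genes tested, 9.94% were called. Of 10 evening clock genes 3 were lower and 0 higher. GI, an evening component of the clock, had 8.61, 40.6 and 38.1 in brm-1 and 157, 199 and 76 in brm-3 (-2.43 ± 0.56, limma adjusted p = 0.00645). CHE, which encodes a TCP factor that represses CCA1, had 683, 976 and 792 against 1524, 1751 and 1781 (-1.06 ± 0.18). Of 8 morning genes LHY was higher, with 27.4, 23.8 and 19.1 against 2.64, 5.27 and 2.64 (2.47 ± 0.65, limma adjusted p = 0.0164), and LNK1 was lower. LHY lost its call without brm-1 replicate 1 or 2 or brm-3 replicate 1 or 3, and GI without brm-1 replicate 1. The hour of harvest is not given in the sources used here, and the part of harvest time in these values was not tested.

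Several genes of glucosinolate synthesis rose in brm-1. These sulfur-rich compounds deter herbivores. Of 18 genes tested, 8 were higher and 0 lower, with a median log2 fold change of 0.71. The shares over all genes tested were 5.34% higher and 4.6% lower. Among those that rose were genes of the methionine-derived branch. MAM3, which elongates the methionine side chain, had 404, 478 and 475 in brm-1 and 23, 97.4 and 29.8 in brm-3 (3.44 ± 0.48, limma adjusted p = 5.09e-05). MAM1 had 3629, 3652 and 2909 against 721, 652 and 979 (2.13 ± 0.21), CYP79F1 had 1124, 1306 and 947 against 166, 192 and 386 (2.27 ± 0.39), and BCAT4 had 3509, 3368 and 3223 against 1213, 831 and 1169 (1.67 ± 0.22). MAM1, CYP79F1 and BCAT4 were in the brm-1-only class. Without brm-1 replicate 1 the number of higher members was 5.

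Defence genes changed in both directions. Of 19 defensin and jasmonate genes tested, 6 were higher and 3 lower, the latter 1 without brm-1 replicate 3. The shares over all genes tested were 5.34% higher and 4.6% lower. The higher members were PDF1.1, PDF1.2, PDF1.2b, PDF1.3, ORA59 and PR4, and the lower ones MYC2, VSP1 and AOS. PDF1.1 had 830, 586 and 394 against 5.54, 23.3 and 20.1 (log2 fold change 5.27 ± 1.03, limma adjusted p = 0.0016), and the defensin gene PDF1.3 had 1694, 1322 and 275 against 36.3, 38.6 and 45.7 (4.38 ± 0.79). PDF1.2, PDF1.2b and PDF1.3 have similar sequences, so that the division of reads among them is uncertain. ORA59, a transcription factor known to activate PDF1.2 in response to jasmonate and ethylene, had 703, 780 and 578 against 19.7, 59.1 and 29.9 (4.34 ± 0.82, limma adjusted p = 0.00113). PR4 had 41304, 49142 and 32211 against 4185, 5899 and 5440 (2.98 ± 0.38). MYC2, a transcription factor of jasmonate signalling, fell by 1.4 and VSP1, a vegetative storage protein gene, fell by 3.08 on the log2 scale (limma, adjusted p = 0.0206 and 2.53e-06). VSP1 had 98.9, 75 and 44.4 against 489, 656 and 644. AOS, an enzyme gene of jasmonate synthesis, fell by 0.71. MYC2 and AOS each lost their call in 4 of 19 settings (limma, adjusted p up to 0.0756 and 0.156). Of 12 salicylic acid genes 3 were higher. PR1 had 689, 80.8 and 23.5 in brm-1 and was listed at 0 in brm-3 and WT. PR5 and PAD4 were higher by 3.23 and 1.37 (limma, adjusted p = 0.00782 and 0.0165), and PAD4 was lost in 5 of 19 settings (up to 0.127).

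Of 12 flavonoid genes tested, 3 were higher and 0 lower, against 5.34% higher and 4.6% lower over all genes tested. CHS, the first enzyme of the pathway, had 1015, 750 and 541 against 102, 71.5 and 151 (log2 fold change 2.83 ± 0.55, limma adjusted p = 0.0014). Its activator MYB111 had 206, 207 and 178 against 13.4, 16.8 and 14.4 (3.65 ± 0.57), and MYB90, an activator of anthocyanin synthesis, had 86.9, 75 and 14 against 0, 1.77 and 4.29 (4.25 ± 1.0, limma adjusted p = 0.0072). MYB90 lost its call without replicate 1 of either allele.

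Developmental regulators changed in small numbers, and 9.94% of all genes tested were called. Of 18 CIN-TCP, GRF and GIF1 genes, which set leaf shape and size, TCP3, TCP4 and GRF3 were lower by 1.26, 1.03 and 0.85 on the log2 scale and TCP24 was higher by 0.79 (limma, adjusted p = 0.0124, 0.00638, 0.00222 and 0.0495). TCP24 was lost in 11 of 19 settings (adjusted p up to 0.297), and TCP3 without brm-1 replicate 1 or brm-3 replicate 3. TCP4 had 176, 201 and 177 against 385, 306 and 458. Of 9 KNOX, meristem and boundary genes, AS1 (238, 225 and 246 against 538, 553 and 519) and CUC1 (0.883, 4.94 and 0 against 8.93, 9.71 and 34) were lower. CUC1 has low counts and lay just past the threshold (limma, adjusted p = 0.0492), and the call was lost in 10 of 18 settings. MAF2, a repressor of flowering, had 594, 646 and 511 against 201, 299 and 236 (1.26 ± 0.24, limma adjusted p = 0.00133) and was the only one of 13 flowering time genes called. Of 10 heat shock genes, HSP70 was lower (218, 210 and 207 against 487, 471 and 724, -1.37 ± 0.27) and HSP18.2 higher (35.4, 55.1 and 66.1 against 0, 7.94 and 12.0, limma adjusted p = 0.0312), the latter lost in 5 of 19 settings. Single members were called in 4 further lists, a share near that of all genes tested. SPL4 was higher among 11 SPL genes (1.66) and the histone gene HTR2 among 9 cell division genes (0.95), while the auxin influx carrier gene LAX1 was lower among 9 auxin transport genes (-0.69) and COR15A among 9 cold response genes (-3.07). LAX1 lost its call in 6 and SPL4 in 4 of 19 settings, and COR15A without brm-3 replicate 3.

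Beside the 9.94% of all genes tested that were called, several lists gave no called member. These were the Polycomb and H3K27 demethylase genes (11 tested), MIR156, MIR157 and MIR172 precursors (6), floral organ identity genes (6), type-A ARR genes of cytokinin signalling (9), gibberellin genes (14), genes of dark and sugar starvation (14) and root markers (13). Among them 0 genes were called by limma, while 1 of the Polycomb and demethylase genes, 1 of the precursors, 2 floral genes, 2 ARR genes, 4 starvation genes, 3 root markers and 0 gibberellin genes had an unadjusted p under 0.05. Of 11 stomata and trichome markers GL2 was called lower (42.2, 23.8 and 46.4 against 124, 205 and 116) but not without replicate 2 of either allele, and the summed level of the list was 1711 to 2055 in brm-1 and 1662 to 1705 in brm-3.

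**Figure D4:**
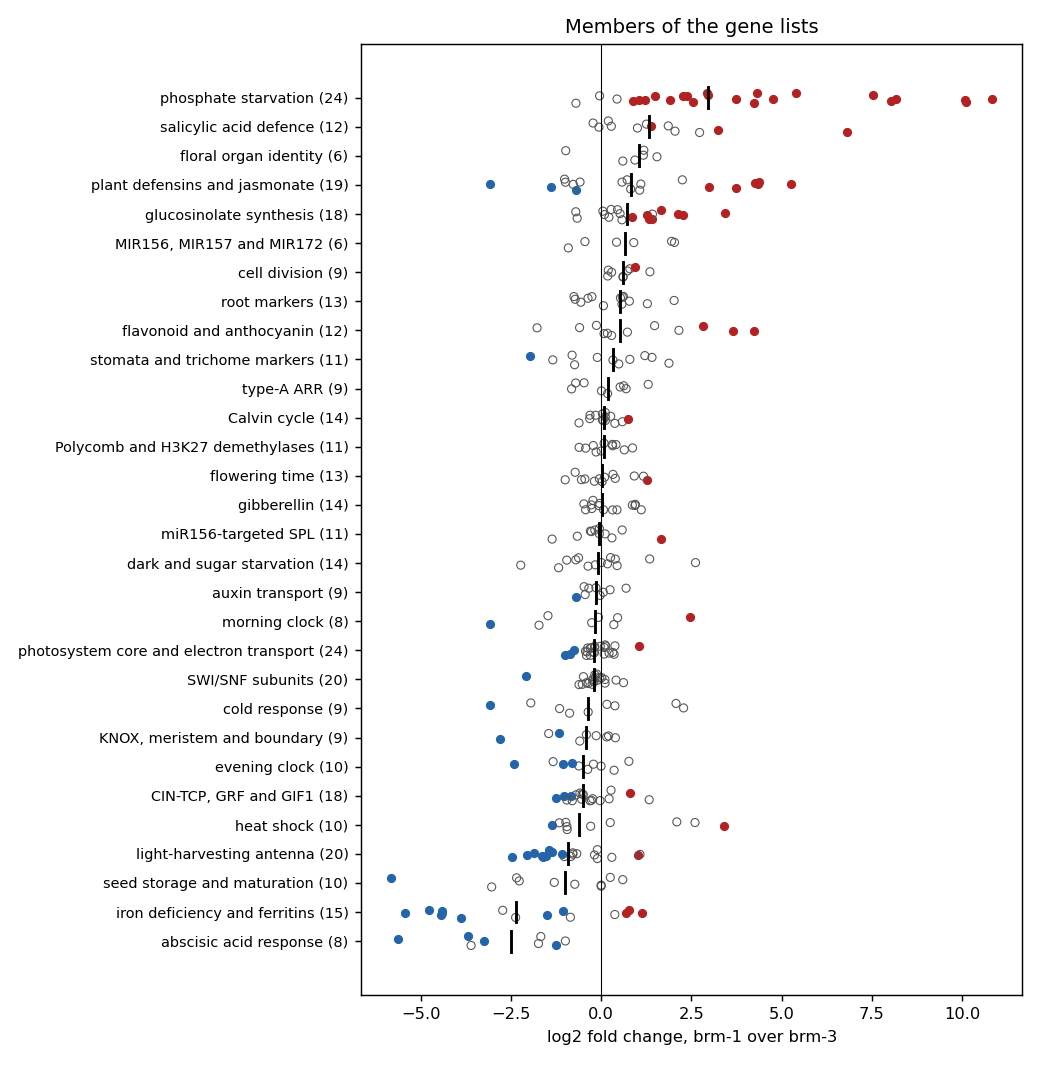
Log2 fold change of brm-1 over brm-3 for the tested members of each gene list (number tested in parentheses). Filled red and blue points are genes called higher and lower, open points genes not called, and black bars list medians, which run from -2.49 for abscisic acid response to 2.95 for phosphate starvation.

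The same allele pair was also sequenced without BCL7A and BCL7B, in libraries that share nothing with the comparison above. Between brm-1 bcl7a bcl7b and brm-3 bcl7a bcl7b, 3521 genes (16.3%) were higher and 2916 (13.5%) lower. BRM was again lower with brm-1, at 17.9, 26.5 and 43.6 against 117, 115 and 163 (log2 fold change -2.20, limma adjusted p = 8.05e-05). Most other differences did not recur. Of the 1153 genes higher in brm-1 than in brm-3, 154 (13.4%) were also called higher in the triple mutant with brm-1 and 383 (33.2%) were called lower. Of the 994 lower genes, 94 (9.46%) were also called lower and 379 (38.1%) called higher. Shares in the same direction were below those over all genes tested, and shares in the opposite direction above them. In the brm-1-only class 43 of 374 rises and 26 of 277 falls were called in the same direction between the triple mutants. Reversed calls were more frequent, with 136 rises (36.4%) called lower there and 76 falls (27.4%) called higher. The median log2 fold change between the triple mutants was -0.51 for the rises of this class and 0.34 for its falls. The difference of the allele effect between the backgrounds was itself tested, and it was called for 28% of all genes and for 74.1% and 72.2% of the higher and lower genes of the brm-1-only class. The genes of that class were chosen by the difference between the single mutants, which also enters this test, so that its share is a description. The replicates of brm-3 bcl7a bcl7b differed more than those of the other 3 brm genotypes, with an SD of 1.22 to 1.31 on the log2 scale.

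Lists differed in whether they recurred. Of the 18 glucosinolate genes 8 were higher and 0 lower with brm-1 in the triple mutants too, with a median of 0.70. These were not all the same 8 genes. The allele effect of MAM1 was 2.13 in the single mutants, and that value minus the one in the triple mutants was 2.55. MAM1 was therefore below 0 in the triple mutants. For MAM3, CYP79F1 and BCAT4 the difference between backgrounds was smaller than the rise in the single mutants, so these stayed above 0. For 9 of the 18 the allele effect differed between backgrounds, with MAM1, MAM3, CYP79F1 and BCAT4 among them. Of the 20 light-harvesting genes 10 were higher and 0 lower in the triple mutants, and for 14 of them the allele effect differed between backgrounds. The median of the 8 abscisic acid genes was 0.94 there, and of the 19 defensin and jasmonate genes 14 were higher. The rise of the phosphate list did not recur as a whole. In the triple mutants 6 of the 24 were higher and 4 lower with brm-1, the median was -0.28, and for 18 of the 24 the allele effect differed between backgrounds. SPX1 had 1591, 1222 and 988 in brm-1 bcl7a bcl7b and 10665, 3681 and 11182 in brm-3 bcl7a bcl7b, so that the order of the alleles was turned (log2 fold change -2.61, limma adjusted p = 0.000125). PEPC1 had 216, 234 and 105 against 1693, 309 and 1868 and was not called there (limma, adjusted p = 0.0955), and MIR399D had 3.96, 4.51 and 0 against 181, 0 and 280. In these genes brm-3 bcl7a bcl7b replicate 2 was the lowest of its group. PHO2 was higher with brm-1 there, at 877, 684 and 736 against 273, 306 and 263 (1.44, limma adjusted p = 0.00043). VSP1 turned as well, with 9448, 10942 and 4953 against 147, 125 and 313. Differences that did recur included MLP328 (-1.98, limma adjusted p = 5.47e-06), SADHU5-1 (-2.26, limma adjusted p = 0.00344), IMA1 (listed at 0 in brm-1 bcl7a bcl7b and 12.4, 26.9 and 22.6 in brm-3 bcl7a bcl7b), FER1 (1.97, limma adjusted p = 1.96e-05) and SQD1 (1.0, limma adjusted p = 0.000347).

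**Figure D5:**
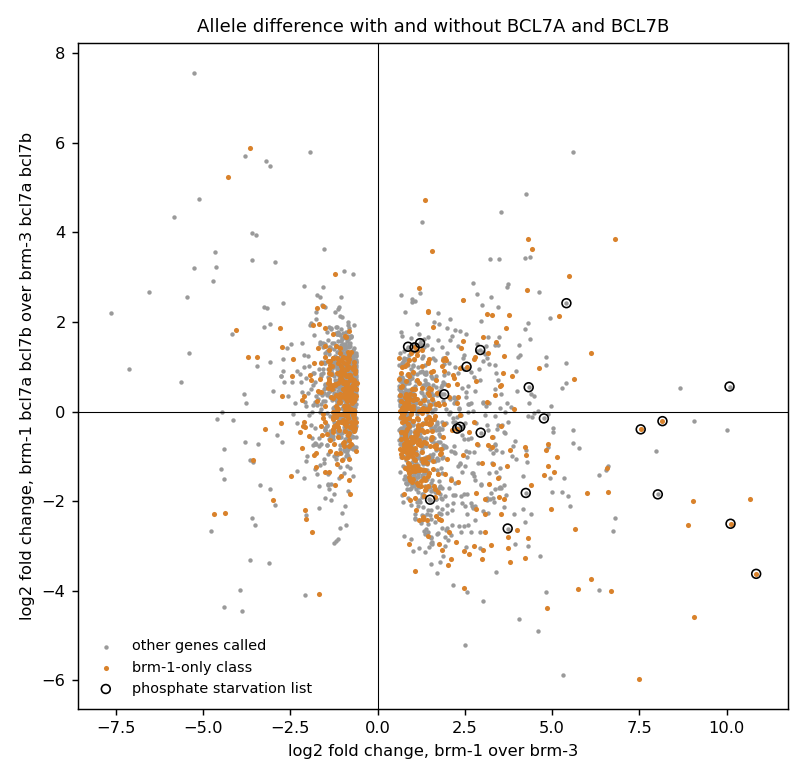
Log2 fold change between the triple mutants, brm-1 bcl7a bcl7b over brm-3 bcl7a bcl7b (vertical), against that between the single mutants (horizontal) for the 2147 genes called in brm-1 against brm-3. Orange points are the brm-1-only class and circles the phosphate starvation genes. Of the 1153 genes to the right of 0, 154 were also called higher in the triple mutants and 383 were called lower.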

How the data were processed

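RNA-seq of 14-day-old Arabidopsis seedlings gave 24 libraries of 8 genotypes. The deposited values are normalized counts per gene, a signal on a relative scale rather than raw reads: the authors quantified paired-end reads with Salmon (1.5.1 in the submitters' notes) against the AtRTD2 transcriptome and scaled all samples together with DESeq2 size factors (3.10 in those notes, which also name TAIR10). The methods name TPM as the input to DESeq2, while the deposited sums differ between libraries and are far above those of TPM, so the scale before size factors was not settled. Read depth is therefore unknown, and the number of libraries limits the precision.

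limma 3.58.1 in R 4.3.3 (lmFit, eBayes with trend) was run on log2(value + 1) for the 21596 of 33681 genes that reached 10 in 3 or more libraries, with all genotypes in 1 model and no replicate block. bcl7a bcl7b replicates 1 and 3 differed far less than other replicate pairs (SD of log2 ratios 0.131 against 1.09 for the other pairs of that genotype) and were averaged, leaving 23 samples. Calls required a Benjamini-Hochberg adjusted p under 0.05 over all genes together with a log2 fold change beyond 0.6 in either direction, the thresholds of the methods. The procedure was tested on simulated data. In the 22 alternative settings the pseudocount, filter, scaling, samples and thresholds were changed 1 at a time.

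Named genes were the SWI/SNF subunits, the 10 largest rises and falls among genes whose libraries did not overlap and had values in both alleles, the 5 highest genes at 0 throughout the other allele, the 10 largest rises and falls of the brm-1-only class, and up to 4 members per list by absolute log2 fold change. Other names, PHO1, AT5G20790, the miR399 genes and the marneral cluster included, were chosen after their values were seen. The 30 gene lists, the tests and the comparison itself were chosen with earlier results of these data known. Sequences came from the RefSeq annotation of TAIR10.1, in which 32954 of the gene identifiers were found.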

Additional observations from a re-analysis of the deposited data

Results flagged for a closer look

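The difference between brm-1 and brm-3 was compared with the same difference without BCL7A and BCL7B, by a contrast in the limma model. It was more positive in the single mutants for 2838 genes and more negative for 3207 (adjusted p under 0.05, difference beyond 0.6), and for 67 of the 94 genes described here it differed. The values below are the log2 difference in the single mutants minus that in the triple mutants. Most of the genes were named for a large difference in the single mutants, which raises the size of these values. For 10 genes a group was at 0 throughout, so that the size depends on the added 1 and only the direction and the adjusted p of the limma contrast are given.

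Among genes of phosphate starvation and AT5G20790 the values were 12.61 for PEPC1, 9.52 for IPS1, 9.25 for AT5G20790, 8.37 for PPSPASE1, 9.87 for SPX3, 7.93 for MGD3, 1.57 for PHT1;4, 6.34 for SPX1, 4.92 for AT4, 1.55 for SQD1, 3.43 for PAP17 and -2.14 for PHO2. All but PHO2 were more positive in the single mutants. Among iron genes they were -2.01 for BTS and -2.58 for PYE, and among genes of abscisic acid and seed maturation -6.30 for RAB18, -4.92 for HAI1, -5.14 for NCED3, -7.64 for HVA22B and -8.22 for TSPO, all more negative in the single mutants.

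Light-harvesting and clock genes had -3.98 for LHCB2.2, -2.79 for LHCB2.1, -1.69 for LHCA4, -2.37 for GI, -1.86 for CHE and 3.08 for LHY. Defence, glucosinolate and flavonoid genes had 4.74 for PDF1.1, 4.15 for ORA59, -8.55 for VSP1, -3.77 for AOS, -2.34 for MYC2, 2.89 for PAD4, 2.74 for MAM3, 1.66 for CYP79F1, 2.55 for MAM1, 0.98 for BCAT4, -9.84 for ESP, 5.11 for MYB90 and 4.12 for MYB111. Developmental, heat shock, root and SWI/SNF genes had -2.34 for TCP3, -2.18 for TCP4, 1.01 for TCP24, -1.49 for AS1, 2.08 for SPL4, -1.29 for LAX1, 3.17 for MAF2, 4.19 for WER, -1.26 for SWP73B 4.27 for HSP18.2, -4.17 for COR15A and -2.40 for HSP70. The remaining genes had 8.14 for FTM1, 9.17 for AT3G20395, -8.46 for AT2G47880, 10.69 for ZIP12, -5.87 for MRN1, -4.65 for CYP705A12 and -1.02 for MLP328.

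Of the genes with a group at 0, the difference was more positive in the single mutants for MIR399D (limma, adjusted p = 8.44e-06), MIR399c (1.05e-06), AT2G17850 (5.33e-10) and AT3G29970 (1.61e-07). It was more negative for IRT1 (limma, adjusted p = 0.00252), BHLH100 (0.00544), BHLH38 (0.0439), EM6 (7.18e-06), AT1G27565 (0.000222) and CUC1 (0.00791).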

How the results depend on the processing

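With 3 libraries a group, the counts of calls depended on single libraries. Leaving out each replicate in turn gave 648 to 1342 genes higher and 594 to 1132 lower in brm-1 than in brm-3, 205 to 419 and 169 to 286 in the brm-1-only class, 3427 to 3849 and 2819 to 3281 between the triple mutants, and 2256 to 3263 and 2677 to 3503 for the difference of the allele effect. For the brm-1-only class the lowest counts were 210 higher without brm-1 replicate 1, 205 without replicate 2, and 237 higher and 169 lower without brm-3 replicate 3.

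Fitting only the groups compared raised the higher genes to 2110, with 1997 of the 2147 calls shared among 3575. The genotypes with low library sums alone, an alternative chosen after seeing the data, gave 1838 higher. Requiring an absolute log2 fold change above 1 gave 502 lower genes, and 2233 higher between the triple mutants. The brm-1-only class held 226 higher and 166 lower genes with brm-3 within 0.3 of WT, and 418 lower after quantile normalization. These settings changed the samples, the threshold or the scaling, and why the counts moved was not tested. PHR1, which was not called, ranged from -0.22 without brm-3 replicate 3 to 0.15 without brm-1 replicate 3, and was 0.10 without brm-3 replicate 1.

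Replicate numbers did not pair the samples: deviations of same-numbered brm-1 and brm-3 libraries correlated at -0.0406, 0.0169 and -0.0353. With the replicate number as a block the counts were 1184 higher and 1012 lower, and of the called genes named here CUC1 and TCP24 were lost. The block changed no other call of a named gene. Read depth is unknown, so genes near 0 cannot be given a detection limit.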
